A study of Homo sapiens with 3 samples.

Results

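The genes described are 10 chemokines, 7 of the CXC family (CXCL1, CXCL2, CXCL3, CXCL5, CXCL6, CXCL8 and CXCL12) and 3 of the CC family (CCL2, CCL7 and CCL20), among the 32732 genes shared by the 3 feature tables. They were picked by name, with their change between days already known, so their levels are given as a description with no test. All 10 were found by gene symbol. The cells were a wild-type culture of BJ, an established line of human skin fibroblasts, sampled once at day 0 (labelled BJ) and once each at days 3 and 5 of a chemical reprogramming towards neurons (both labelled FiN, induced neuron cells). Per the labels' protocols, BJ cells on poly-D-lysine were grown in DMEM with 10% serum and then in a neuronal induction medium with 10 µM forskolin, an activator of adenylyl cyclase. The medium was changed on day 2 to a maturation medium that kept forskolin, and forskolin was withdrawn on day 5. The labels give the same treatment text for all 3 libraries and do not say whether the day 0 cells had met forskolin. Each day is 1 single-cell RNA library, so no difference between days has a replicate check.

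Chemokines are small secreted proteins that direct the movement of leukocytes through G protein-coupled receptors. CXCL1, CXCL2, CXCL3, CXCL5, CXCL6 and CXCL8 carry the ELR motif, act on CXCR1 or CXCR2 and recruit neutrophils. CCL2 and CCL7 act on CCR2 and recruit monocytes, CCL20 acts on CCR6, and CXCL12 acts on CXCR4 and ACKR3. In fibroblasts the ELR chemokines and CCL2 are known as targets of NF-kB after interleukin-1 or TNF, while CXCL12 is known as a homeostatic chemokine of stromal cells and of the developing nervous system.

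The promoters of 9 members were in the RefSeq table (GRCh38.p14). CCL2 was not matched there. RefSeq starts differ from the GENCODE gene ends given further on, so the windows of CCL20, CXCL12 and CXCL6 lie wholly inside the GENCODE gene spans. Those of CXCL2, CXCL3, CXCL5 and CXCL8 lie partly inside them. The stretch of 80 bases from 120 to 41 bases before the RefSeq start of each gene is shown because it holds GGAATTTCC, the motif found in the ELR members and in none of the other 3 promoters. Capitals mark this motif, a form of the NF-kB motif, and each sequence runs 5′ to 3′ on the gene's strand.
CXCL8 (chr4:73740449-73740528, plus strand): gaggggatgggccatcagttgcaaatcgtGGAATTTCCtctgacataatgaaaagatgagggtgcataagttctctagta
CXCL6 (chr4:73836558-73836637, plus strand): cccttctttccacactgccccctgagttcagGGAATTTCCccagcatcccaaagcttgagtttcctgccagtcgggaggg
CXCL1 (chr4:73869273-73869352, plus strand): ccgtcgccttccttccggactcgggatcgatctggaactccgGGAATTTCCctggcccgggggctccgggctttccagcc
CXCL5 (chr4:73998718-73998797, minus strand): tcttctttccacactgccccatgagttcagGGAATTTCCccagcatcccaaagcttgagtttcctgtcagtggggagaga
CXCL3 (chr4:74038730-74038809, minus strand): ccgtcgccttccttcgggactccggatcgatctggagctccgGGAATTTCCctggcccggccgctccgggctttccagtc
CXCL2 (chr4:74099236-74099315, minus strand): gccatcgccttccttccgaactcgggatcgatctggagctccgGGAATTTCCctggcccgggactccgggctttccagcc
CXCL12 (chr10:44385138-44385217, minus strand): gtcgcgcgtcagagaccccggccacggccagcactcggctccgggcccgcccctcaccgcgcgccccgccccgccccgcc
CCL7 (chr17:34270101-34270180, plus strand): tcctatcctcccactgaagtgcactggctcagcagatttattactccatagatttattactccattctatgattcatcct
CCL20 (chr2:227813722-227813801, plus strand): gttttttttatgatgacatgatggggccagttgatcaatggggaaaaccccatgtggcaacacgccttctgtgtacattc
GGAATTTCC stood in the promoters of all 6 ELR members, with its first base 77 to 91 bases before the start. It was in 129 of 27305 RefSeq promoters of 300 bases searched on both strands, or 0.472%. CXCL1, CXCL2 and CXCL3 share most of the letters around it, as do CXCL5 and CXCL6, so these are related copies and not separate cases. TGANTCA, a form of the AP-1 motif, was in the promoters of CXCL8 and CCL7 and in 7.76% of all promoters. TGACG, a part of the cyclic AMP response element, was in those of CXCL8, CXCL3, CXCL2 and CXCL12 and in 25% of all promoters. The full element, TGACGTCA, was in none of the 9 and in 1.98% of all promoters. TATAAA was in the promoters of CXCL8, CCL7 and CCL20, starting 29 to 31 bases before the start, and in 12.0% of all promoters. These are matches of letters, not sites shown to be bound. For NF-kB only GGAATTTCC was searched, so other forms of its motif were not looked for in any promoter.

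The libraries kept 16773, 11454 and 9219 cells at days 0, 3 and 5, with medians of 14039, 1324 and 4374 UMIs (unique molecular identifiers, each standing for 1 captured molecule). Levels are CPM, a gene's UMIs scaled to the library's total on the shared genes and not divided by gene length. MALAT1, a nuclear RNA, took 3.14%, 21.6% and 7.35% of UMIs at days 0, 3 and 5, ribosomal protein genes 17.1%, 4.35% and 2.20%, and mitochondrial genes 6.45%, 0.745% and 5.01%. Per the labels' protocols, dissociated cells were loaded with a 3′ kit at day 5 and nuclei were prepared on the other days. The library text of each day names a chromatin accessibility kit, although each file holds gene counts. Days 0 and 3 differ in depth and in these shares as well, despite the same protocol text, so day and the make-up of the library cannot be told apart in any of the comparisons. Summed fibroblast markers stood at 9789, 8195 and 1274 CPM and summed neuron markers at 82.0, 65.3 and 3821 CPM, so the day 3 library, although labelled induced neuron cells, had few neuron UMIs. Of 11 fibroblast markers, 4 were called higher at day 3 than at day 0 (COL1A2, COL3A1, PDGFRA and TWIST1) by the rule given below. The 4 called lower were COL1A1, THY1, DCN and VIM. Over all genes tested, 37.6% were called higher and 19.1% lower. With edgeR's TMM scaling 3 markers were higher and 5 lower, against 14.5% and 46.5% of all genes tested. Summed leukocyte markers were low on every day, at 34.6, 7.96 and 2.89 CPM, with CD3E at 0 in each library. Libraries shared 27 to 63 cell barcodes in pairs.

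All 9 members other than CXCL12 stood at their highest level at day 3. A gene was called higher or lower where the ratio was at least 2, the larger level at least 10 CPM and the exact Poisson 95% intervals apart. By this rule 9 of 9 members tested were higher at day 3 than at day 0, where 37.6% of all 10431 genes tested were called higher and 19.1% lower. The members were listed for this change, so nothing is read from that count. The median log2 ratio over the 14626 genes with at least 10 UMIs in each library was 0.81, and it was -0.39 with edgeR's TMM scaling. The median over the members, 4.97, is to be read against that shift.

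CXCL8 (interleukin-8), the ELR chemokine at the lower end of the chromosome 4 cluster, had 65.6, 522 and 0.0589 CPM at days 0, 3 and 5. The day 5 value rests on 3 UMIs. CXCL8 was thus 7.96-fold higher at day 3 than at day 0 (95% interval 7.76 to 8.16), a log2 ratio of 2.99, or 1.79 with TMM scaling. CXCL3 had 23.9, 544 and 3.44 CPM, a ratio of 22.7 at day 3 over day 0 (22.0 to 23.5). CXCL3 and CXCL8 had nearly equal levels at day 3, although CXCL8 led at day 0. CXCL2 had 16.5, 113 and 1.51 CPM, and its ratio of 6.81 at day 3 over day 0 (6.46 to 7.18) was the smallest of the ELR members, a log2 ratio of 2.77, or 1.57 with TMM scaling. All 9 called members stayed called higher with TMM scaling, the log2 ratios running from 1.57 for CXCL2 to 6.87 for CXCL5 among the ELR members, where 14.5% of all genes tested were called higher and 46.5% lower.

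The other ELR members started lower. CXCL1 had 6.69, 288 and 0.628 CPM at days 0, 3 and 5, a ratio of 43.1 at day 3 over day 0 (40.8 to 45.5). CXCL5 had 1.48, 399 and 0.982 CPM, a ratio of 269 (242 to 299). CXCL6 had 0.519, 48.5 and 0.412 CPM, a ratio of 93.3 (77.5 to 113). CXCL5 and CXCL6 had the largest ratios of the ELR members, from the lowest day 0 levels among them. At day 5 against day 0 CXCL6 had a ratio of 0.794 (0.475 to 1.27), a log2 ratio of -0.33, and with TMM scaling the log2 ratio was -1.47. For CXCL5 it was -0.60, and -1.73 with TMM scaling, with both genes under 10 CPM on both days.

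CCL2 (monocyte chemoattractant protein 1) held more UMIs than any other member at day 3, with 58.8, 792 and 0.216 CPM at days 0, 3 and 5. It ranked 82 among all genes at day 3, against 2614 at day 0, and its ratio was 13.5 (13.2 to 13.8). CCL7, its neighbour on chromosome 17, had 0.0933 and 27.4 CPM at days 0 and 3 and 0 UMIs at day 5. CCL20 had 0.191 and 36.8 CPM at days 0 and 3 and 0 UMIs at day 5. The day 3 over day 0 ratios of CCL7 and CCL20 were 294 (194 to 468) and 193 (144 to 265), resting on 23 and 47 UMIs at day 0. A ratio of this size from so few UMIs is set mainly by the day 0 count.

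**Figure D1:**
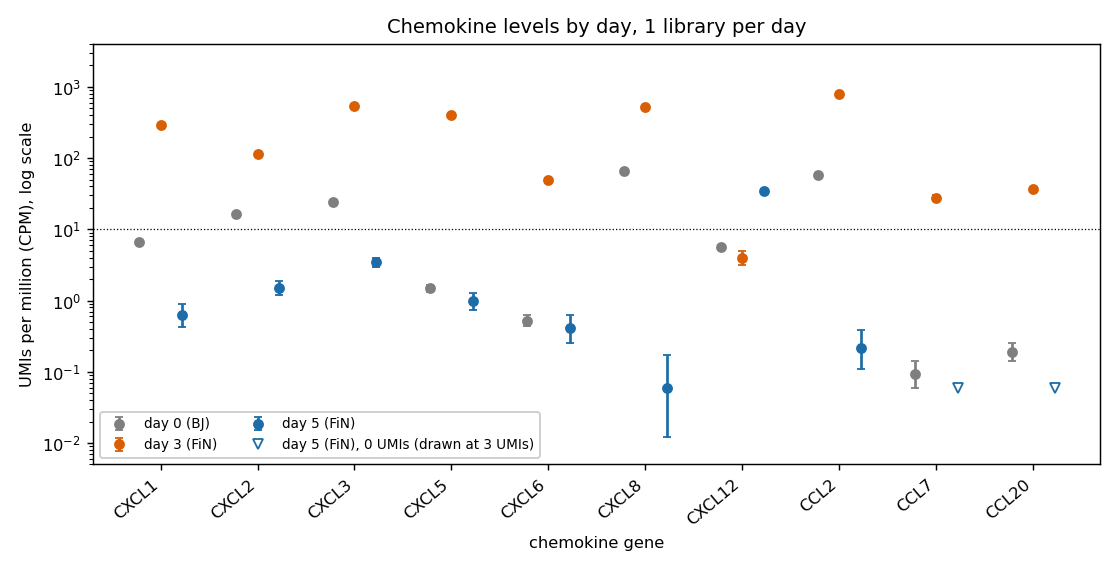
Level of each chemokine in CPM on a log axis, at days 0, 3 and 5, 1 library each; bars are exact Poisson 95% intervals (counting error only), open triangles stand at 3 UMIs where no UMI was found, and the dotted line is 10 CPM. The 9 members other than CXCL12 are highest at day 3, and CXCL12 alone is highest at day 5, at 35.0 CPM.

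CXCL12, known for guiding migrating neurons and progenitors, ran the other way. It had 5.70, 4.01 and 35.0 CPM at days 0, 3 and 5. At day 3 it was under the 10 CPM minimum and so was not tested against day 0; its ratio was 0.703 (0.550 to 0.887), a log2 ratio of -0.51. That log2 ratio was -1.71 with TMM scaling and 0.12 with the mean of per-cell CPM, so its direction depends on the scaling. At day 5 it was 8.74-fold higher than at day 3 (6.94 to 11.2) and 6.15-fold higher than at day 0 (5.73 to 6.60), a log2 ratio of 2.62, or 1.48 with TMM scaling. Day 5 barcodes under 100 UMIs held 41.2 CPM of CXCL12. The part of RNA outside cells in its day 5 level was not tested.

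Between day 5 and day 3, 1 of 10 members was higher (CXCL12) and 9 of 10 were lower, where 36.5% of all 12623 genes tested were called higher and 28.7% lower. CXCL8 was 8864-fold lower at day 5 than at day 3 (3032 to 42992, from 3 UMIs) and CCL2 3665-fold lower (2047 to 7343, from 11 UMIs). CCL7 and CCL20 were at least 465-fold and at least 625-fold lower, with the day 5 library, which held none, set at a floor of 3 UMIs. CXCL2, with the smallest difference of the 9 lower members, was 74.5-fold lower (59.4 to 94.8). With TMM scaling the members' counts were again 1 higher and 9 lower, against 37.5% and 27% of all genes tested.

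Between day 5 and day 0, 5 members were tested: CXCL12 was higher and CXCL2, CXCL3, CXCL8 and CCL2 were lower, where 49.1% of all 12084 genes tested were called higher and 26% lower. CXCL3 was 6.97-fold lower at day 5 than at day 0 (5.99 to 8.14) and CCL2 272-fold lower (152 to 545). With TMM scaling 1 member was higher and 5 lower, with CXCL1 added, against 32.6% and 43% of all genes tested. The folds of the lower members at day 5 covered a wide range. CXCL2, CXCL3, CXCL8 and CCL2 had all been called higher at day 3 than at day 0, with ratios from 6.81 to 22.7.

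The 6 ELR members lie within 358.8 kb of chromosome 4 (GRCh38, GENCODE 29), with CXCL8 (73740506 to 73743716, plus strand) at the lower end and CXCL2 (74097035 to 74099293, minus strand) at the upper. The cluster holds 3 other chemokine genes, and these were near 0 at day 3. PF4 (platelet factor 4) had 0.154 and 0.641 CPM at days 0 and 3, from 38 and 12 UMIs. PF4V1 and PPBP had 1 UMI each at day 0 and none at day 3. AREG and EREG, the genes of the epidermal growth factor receptor ligands amphiregulin and epiregulin beyond the CXCL2 end, had 499, 1434 and 0 CPM and 60.6, 434 and 0.452 CPM at days 0, 3 and 5. MTHFD2L, a mitochondrial folate enzyme gene between them and CXCL2, had 19.0, 44.8 and 97.1 CPM and so, unlike CXCL2, AREG and EREG, stood highest at day 5. Its ratio at day 3 over day 0 was 2.35, against 2.87 for AREG. EPGN, between MTHFD2L and EREG, had 0.0162, 1.07 and 0.255 CPM. On chromosome 17, CCL2 (34255218 to 34257203) and CCL7 (34270221 to 34272242) are followed by CCL11, CCL8, CCL13 and CCL1, of which none was above 1.07 CPM at day 3. CCL11 and CCL13 had 20 UMIs each at day 3, against 0 and 9 at day 0. CXCL12 lies alone on chromosome 10 (44370165 to 44386493, minus strand) and CCL20 on chromosome 2 (227805739 to 227817564, plus strand).

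**Figure D2:**
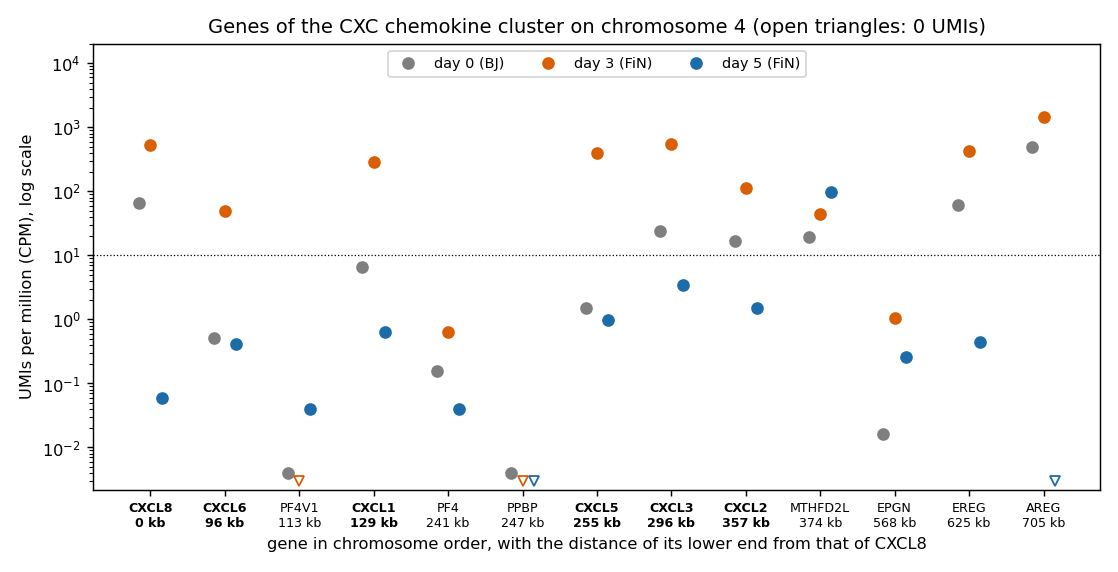
Levels in CPM on a log axis of the genes in and beside the CXC chemokine cluster of chromosome 4, in chromosome order, with distances in kb from the lower end of CXCL8; members are in bold, the dotted line is 10 CPM and open triangles, drawn at the foot of the axis, mark 0 UMIs. PF4V1, PF4 and PPBP stay at or under 0.641 CPM on every day between members that reach 48.5 to 544 CPM at day 3.

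The 10 members together took 180, 2775 and 42.3 CPM at days 0, 3 and 5. At day 0, CXCL8 and CCL2 made up 36.5% and 32.7% of the members' UMIs. At day 3 the UMIs were spread over more genes, with 28.5% from CCL2, 19.6% from CXCL3, 18.8% from CXCL8, 14.4% from CXCL5 and 10.4% from CXCL1. At day 5 CXCL12 made up 82.9%. CXCL1, CXCL2 and CXCL3 are paralogs, and the 3 pairs among them were the only ones of 45 member pairs to share runs of 50 bases in their transcripts. These runs made up at most 5.73% of a transcript's runs of that length. At 91 bases 1 pair, CXCL2 and CXCL3, shared any, at most 0.711%. How reads from such stretches were assigned is not given in the labels.

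To compare shares of cells across depths, each cell was thinned to 1000 UMIs, which left 14385, 8455 and 9219 cells and left out 2388, 2999 and 0 shallower cells at days 0, 3 and 5. A UMI of any member was found in 10.2% (9.67 to 10.7), 89.6% (88.9 to 90.2) and 3.99% (3.60 to 4.41) of these cells, against 41.3%, 96.1% and 14.9% of all kept cells unthinned. CCL2 was found in 4.15%, 52.5% and 0.0325% of thinned cells, and CXCL8 in 3.63% and 37.4% at days 0 and 3 and in 0 of 9219 thinned cells at day 5, which allows a share of up to 0.0325% with a UMI at that depth. CXCL3 was found in 1.80%, 37.1% and 0.304%, CXCL5 in 0.125%, 30.3% and 0.0759%, and CXCL1 in 0.452%, 23.4% and 0.0542%. CXCL12 was found in 0.375%, 0.355% and 3.35%. At least 3 members were found together in 0.250% of day 0 cells, in 32.9% of day 3 cells, and in 0 of 9219 day 5 cells, which allows a share of up to 0.0325% of cells thinned in this way. Unthinned, 11 day 5 cells, or 0.119%, held at least 3.

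**Figure D3:**
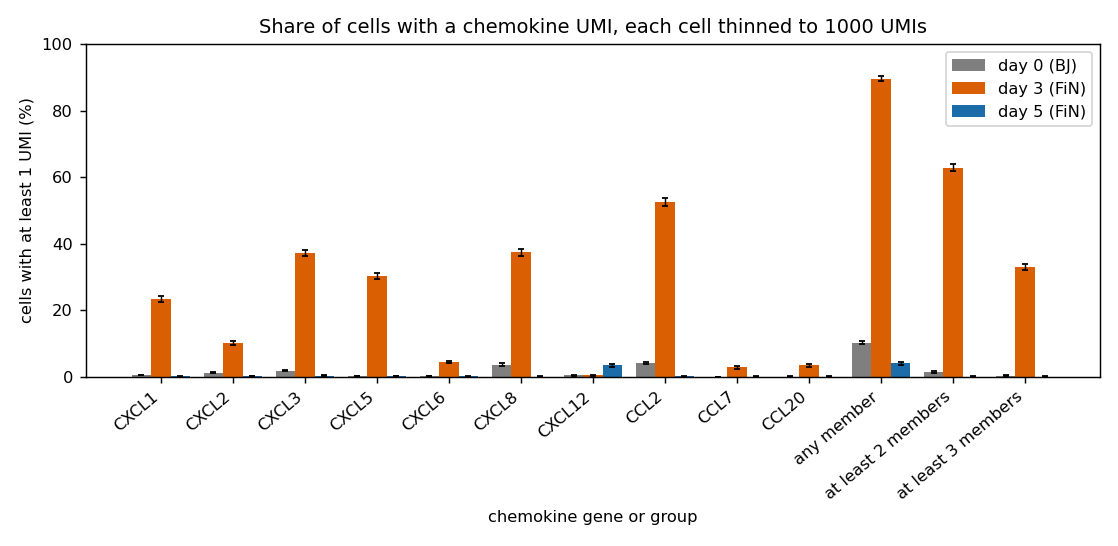
Share of cells (%) with at least 1 UMI of each chemokine, of any of the 10, and of at least 2 or 3 of them, at days 0, 3 and 5, each cell thinned to 1000 UMIs; bars start at 0 and lines are exact binomial 95% intervals. The day 3 shares reach 52.5% for CCL2 and 89.6% for any member, against 4.15% and 10.2% at day 0.

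No cell type that should lack these genes was found in the day 3 library, and the matrices of days 0 and 3 held few low-count barcodes, so the share given by free RNA could not be set. Its part in the day 3 shares, and in the spread over cells and the co-detection given below, was not tested.

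At day 3 the chemokine UMIs were spread over many cells, and at day 0 they were concentrated in few. The 1418 day 3 cells with the most CXCL8, 12.4% of all, held 50% of its 9771 UMIs, and the highest cell had 32. At day 0 the 155 cells with the most CXCL8, 0.924% of all, held 50% of its 16177 UMIs, and 471 UMIs came from 1 cell. For CCL2 it took 18.4% of cells at day 3 and 4.57% at day 0. The variance of a gene's thinned counts beyond Poisson noise, divided by the squared mean, was 0.696 at day 3 and 36.0 at day 0 for CXCL8, and 0.217 at day 3 and 4.57 at day 0 for CCL2. For the summed members it was 0.248 at day 3 and 8.80 at day 0. Unlike the share of cells, this measure has Poisson counting noise taken out. It can still differ with the level, as for CXCL6 at day 3, with 3.25 at a lower mean than CCL2. The difference in level between the days is therefore not removed.

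Pairs of members were found in the same day 3 cell at nearly the rate that independent detection gives. Over the 41 pairs of 45 with at least 5 cells expected, the observed number of cells with both was a median 1.11 times the expected number (range 0.628 to 1.78), and 36 pairs were above 1. The median odds ratio was 1.22. CXCL3 was found in 41.2% of day 3 cells with CXCL8 and in 34.7% of those without it, an odds ratio of 1.31. CXCL2 with CXCL3 had an odds ratio of 1.55, CXCL8 with CCL2 1.16, and CXCL3 with CCL2 1.10. The 4 lowest odds ratios, 0.514 to 0.837, were those of CXCL12 with CXCL3, CXCL8, CCL2 and CXCL5, and CXCL12 with CXCL1 had the highest, 1.90; all 5 rest on only 30 cells with CXCL12.

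In day 0 cells 5 pairs had at least 5 cells expected, and their median ratio was 2.08 and median odds ratio 2.27. CXCL3 was found in 12.8% of day 0 cells with CXCL8 and in 1.38% of those without it, an odds ratio of 10.5. Over 7 settings of thinning and cell choice, the CXCL3 and CXCL8 odds ratio was 1.28 to 1.53 at day 3 and 6.45 to 11.2 at day 0. These settings reuse the cells of 1 library per day, so the ranges do not measure a spread between libraries. At day 0 the setting thinned to 500 UMIs had under 5 cells expected for this pair. CXCL2 with CXCL8 had an odds ratio of 1.47 at day 3, against 5.94 at day 0. CCL2 joined less closely, with an odds ratio of 2.27 with CXCL8, 2.19 with CXCL3 and 1.02 with CXCL2 at day 0. A ratio of observed to expected is bounded by the share of cells, which is far higher at day 3, while the covariance divided by the product of the means is not: for CXCL3 and CXCL8 it was 0.298 at day 3 and 7.46 at day 0. All pairs share their library's cells, so these values carry no test. Doublets were not called, and leaving out the 5% of cells with most UMIs gave median ratios of 1.10 at day 3 and 2.20 at day 0.

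**Figure D4:**
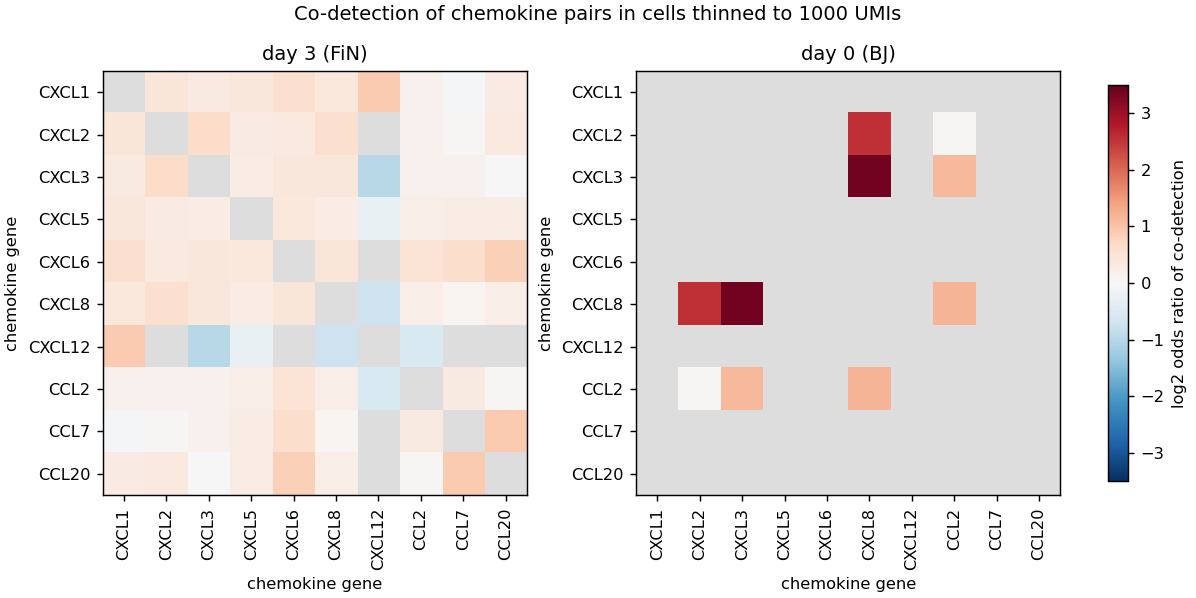
Log2 odds ratio of finding both chemokines of a pair in the same cell, in day 3 cells (left) and day 0 cells (right), each cell thinned to 1000 UMIs; pairs with under 5 cells expected, and each gene with itself, are grey. The day 3 panel is pale, with a median odds ratio of 1.22, and the few pairs that could be read at day 0 include CXCL3 with CXCL8 at 10.5.

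The day 3 cells were grouped into 5 clusters with the members kept out of the genes used. The summed members were at 2755, 2842, 4647, 2466 and 2073 CPM in clusters 0 to 4, a highest-to-lowest ratio of 2.24. Cluster 2 (898 cells, led by CLGN and MRPL54) had the highest level of each of the 9 members other than CXCL12, with CCL2 at 1411 and CXCL5 at 706 CPM. It also had more ribosomal protein UMIs (8.39%) than any other cluster and less MALAT1 (13.4%) than the library's 21.6%, and summed fibroblast markers of 11477 CPM, the highest of the 5. The part of this make-up in its chemokine level was not tested. Cluster 4 (753 cells, led by GTSE1 and APOLD1, with summed cycling markers of 1955 CPM) had the lowest summed level, and any member was found in 84.2% of its thinned cells, against 96.8% in cluster 2.

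CXCL12 had its own pattern across the day 3 clusters. It stood at 9.10 CPM (6.05 to 13.2) in cluster 1 (2504 cells, led by RORB and GNAO1) and at 11.6 CPM in cluster 4, against 1.57 CPM (0.914 to 2.51) in cluster 0, the largest. Clusters 1 and 4 had the highest summed cycling markers, 1470 and 1955 CPM, against 157 to 507 CPM in the others. Between its highest and lowest cluster CXCL12 differed by 7.40-fold, and the other members by 1.57-fold (CXCL2) to 4.0-fold (CXCL6). The CXCL12 values rest on 75 UMIs in the library.

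**Figure D5:**
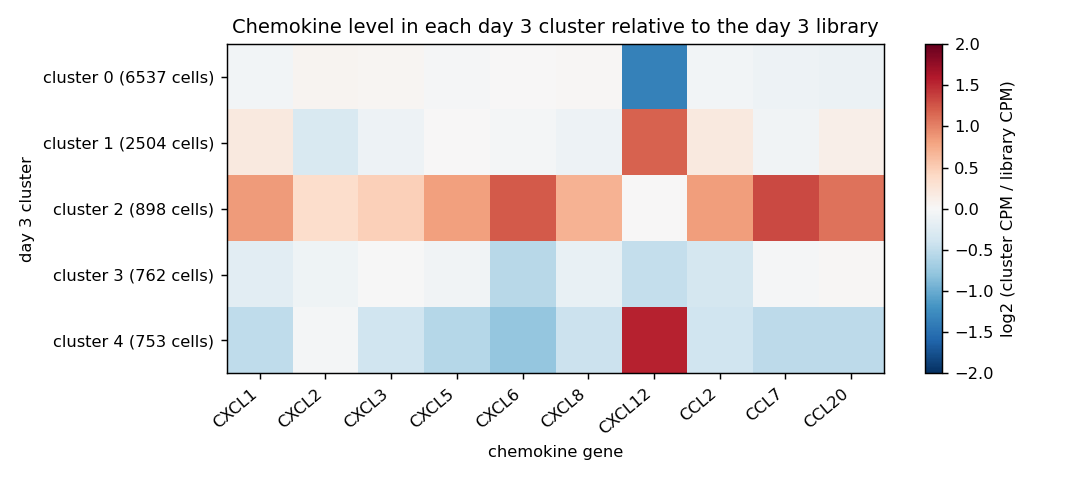
Log2 ratio of each chemokine's level in a day 3 cluster to its level in the whole day 3 library, for the 5 clusters (rows, with their numbers of cells) and the 10 members (columns). Cluster 2 is above the library for the 9 members other than CXCL12, which is instead highest in clusters 1 and 4, at 9.10 and 11.6 CPM.

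At day 0 the clusters differed more, with summed members from 40.1 to 268 CPM, a ratio of 6.69 over the 7 clusters of at least 100 cells. Cluster 5 (1063 cells, led by early response and heat shock genes such as JUN, FOS and HSPA1A) had the highest level, with CXCL2 at 51.9, CXCL3 at 43.1 and CXCL8 at 99.4 CPM. CXCL1, at 7.68 CPM there, was close to the library's 6.69. Cluster 0 (5477 cells), the lowest, had a median of 1686 UMIs and 0.140% MALAT1, and its low chemokine level goes with that make-up; the part of the make-up was not tested. Without it and cluster 4, whose cells had a median of 737 UMIs, the day 0 library had 187 CPM of the members and any member in 13.4% of cells.

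At day 5 the CXCL12 UMIs came mainly from cluster 0 (1715 cells, led by DGKG and RALYL) and cluster 2 (1027 cells, led by DOCK8 and COL23A1), which held 38.7% and 27.0% of them. CXCL12 stood at 76.7 and 68.2 CPM there, against 6.60 to 47.6 CPM in the other clusters of at least 100 cells. Its receptor genes were spread otherwise: CXCR4 was at 32.5 and 37.8 CPM in clusters 0 and 2, against 81.7 and 81.2 CPM in clusters 1 and 3, and ACKR3, which also binds CXCL12, at 8.99 and 9.19 against 36.2 and 46.5 CPM. The few CXCL3 UMIs left at day 5 were also most frequent in cluster 0, at 9.21 CPM. CXCL12 was also found in day 5 barcodes under the cell threshold. It stood at 88.1 CPM in those of at least 1000 UMIs, 96.8 CPM at 500 to 1000 UMIs and 41.2 CPM under 100 UMIs. The part of free RNA in the day 5 cluster values was not tested.

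Of the 23 receptor genes listed, only CXCR4, ACKR3 and ACKR4 reached 10 CPM in a library. CXCR2, the ELR chemokine receptor, had 1, 1 and 0 UMIs at days 0, 3 and 5, and CXCR1 and CCR2 had none in any library. CCR6, the receptor of CCL20, had 0.0284, 0.695 and 0.530 CPM. CXCR4 had 0.00811, 0.0534 and 52.9 CPM. ACKR3 had 0.268, 3.63 and 21.2 CPM, and ACKR1, a decoy receptor of many chemokines, had 0 UMIs at days 0 and 3 and 1.08 CPM at day 5. ACKR4, a decoy receptor of some CC chemokines, had 0.203, 23.6 and 11.3 CPM. Of the 10 other CXC and 20 other CC, CX3C and XC chemokines listed, none reached 10 CPM in any library.

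Interleukin-1, a known inducer of these chemokines in fibroblasts, was read at day 3 with its receptor. IL1B had 0.949, 103 and 0.196 CPM at days 0, 3 and 5, IL1A had 0.0649, 18.2 and 0.687 CPM, and the receptor gene IL1R1 had 58.3, 394 and 0.452 CPM. TNF had 8 UMIs at day 0 and none at days 3 and 5, and its receptor gene TNFRSF1A was lower at day 3, with 44.7 CPM against 133 CPM at day 0. In the list of interleukin-1, TNF and interleukin-17 ligands and receptors, 3 of 7 members tested were higher at day 3 than at day 0 and 2 lower, against 37.6% and 19.1% of all genes tested.

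Among 16 other NF-kB response genes, 7 of 11 tested were higher at day 3 than at day 0 and 2 lower, against 37.6% and 19.1% of all genes tested. TNFAIP6, a hyaluronan-binding protein gene, had 200 CPM at day 3 against 2.75 CPM at day 0, SOD2 633 against 80.7 CPM, CSF3 42.8 against 0.227 CPM, and IL6 114 against 48.3 CPM, the last not called with TMM scaling. PTX3 was lower, with 5.72 CPM at day 3 against 85.7 CPM at day 0, as was SERPINB2 with 7.38 against 51.7 CPM. With TMM scaling the split was 5 higher and 5 lower of 11, against 14.5% and 46.5% of all genes tested. The response genes thus did not all go the way of the chemokines.

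Among 13 NF-kB subunit and inhibitor genes tested, 4 were higher at day 3 than at day 0 and 0 lower, against 37.6% and 19.1% of all genes tested. With TMM scaling 2 were higher and 7 lower, against 14.5% and 46.5% of all genes. NFKB2 had 72.7 CPM at day 3 against 11.3 CPM at day 0, and IKBKB 257 against 20.9 CPM. NFKBIA, the inhibitor gene that NF-kB itself induces, had 316 CPM at day 3 against 333 CPM at day 0, and was called lower with TMM scaling. In the list of C/EBP and AP-1 factors, CEBPB, a factor of the CXCL8 promoter, was higher at day 3, with 1245 against 309 CPM, but was not called with TMM scaling, while 6 of 11 tested were lower, against 19.1% of all genes tested, among them FOS with 13.4 against 203 CPM and FOSB with 0.428 against 262 CPM. The lower C/EBP and AP-1 genes numbered 9 of 11 with TMM scaling, against 46.5% of all genes tested. At day 5 against day 3, 11 of 13 subunit and inhibitor genes and 6 of 6 interleukin and TNF list genes were lower, against 28.7% of all genes tested. These last 2 counts were 11 of 13 and 5 of 6 with TMM scaling, against 27% of all genes tested.

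ATTTA, the core of the AU-rich elements that mark short-lived messengers, was counted in the 3′ untranslated regions of GENCODE 29. CXCL2 had 13.9 per kb and CXCL3 10.4, at percentiles 99.6 and 99.1 of 18187 genes, whose median was 1.59 per kb. CXCL8, CXCL1, CCL20, CXCL5 and CXCL6 had 5.36 to 7.19 per kb. CCL2 and CCL7 had 2.66 and 2.27 per kb, and CXCL12 1.26, below the median. The ELR members and CCL20 lay at percentiles 92.1 to 99.6, CCL2 at 67.8, CCL7 at 61.6 and CXCL12 at 44.2. The part of these elements in the day 5 levels was not tested. Of 8 genes tested for proteins that bind such elements, 1 was higher at day 3 than at day 0 and 1 lower. Over all genes tested the shares were 37.6% and 19.1%. ZFP36 (tristetraprolin, which speeds decay) was lower, with 29.7 CPM at day 3 against 130 CPM at day 0, and TIA1 was higher, with 264 against 34.0 CPM. The split was 1 higher and 2 lower with TMM scaling, KHSRP being added, against 14.5% and 46.5% of all genes tested.

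The genes whose log counts went most with the summed members over the 8455 thinned day 3 cells were TFPI2 (Pearson's r 0.18), MT2A (0.17), TMSB4X (0.13), FTH1 (0.12), STC1 (0.12), MMP3 (0.11), MMP1 (0.11), TIMP1 (0.11), TMSB10 (0.10) and S100A4 (0.10). The nuclear RNAs NEAT1 (-0.17), MALAT1 (-0.14) and KCNQ1OT1 (-0.12) had the lowest coefficients, of like size, so the make-up of the cells moves with the members and its part was not tested. These cells share a library and the coefficients are weak, so the list is a description and no finding. At day 3 the cells with a member UMI had a median of 1550 UMIs before thinning, against 1981 in the cells without.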

How the data were processed

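Gene UMI counts per barcode were deposited without normalization for 3 libraries, 1 per day. Cell Ranger 4.0.0 and the GRCh38 build were used, per the submitters' processing notes, although the header of the day 0 matrix names version 3.0.1. The sources used here give neither the treatment of intronic reads nor of strand.

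The 17504, 11488 and 2037119 barcodes of days 0, 3 and 5 gave 16773, 11454 and 9219 cells after filters on UMIs (500 or more), genes (300 or more) and mitochondrial share (no more than 20%). Day 5 barcodes first had to hold at least 0.1 of the 99th percentile of the top 10000, or 2154 UMIs. UMIs of kept cells were summed (246471041, 18710180 and 50922769 on the shared genes) and scaled to CPM. Intervals are exact Poisson or exact binomial (95%), cover counting error only, and a library under 3 UMIs counts as 3 in ratios. Since cells are not replicates and each group is 1 library, no test was run. Cells were clustered per library (2000 variable genes without the members, 30 components, 15 neighbours, Leiden in igraph 0.11.9, resolution 0.5) and numbered by size. The leading genes were those with the highest ratio of cluster to rest. Scripts ran in Python 3.11.15 with SciPy 1.17.1, and edgeR 4.0.16 gave the TMM factors. The call rule and the co-detection measures were checked on simulated counts.

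The members and lists were chosen with earlier results of these data known. All members are named, and from each list up to 6 genes of at least 10 CPM by the highest level, the receptors of the members whatever their level, and the 10 genes most like the summed members. Neighbouring genes in the chemokine loci were added after their values were seen.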

Additional observations from a re-analysis of the deposited data

Results flagged for a closer look

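The day 5 matrix also holds barcodes under the threshold for cells, which the reported comparisons do not use (one alternative adds those of at least 1000 UMIs), and chemokine UMIs were found in them above the limit that a count of 0 allows. The members summed to 103.9 CPM in barcodes of 1000 UMIs up to the threshold, 112.6 CPM in barcodes of 500 to 1000 UMIs and 54.0 CPM in barcodes under 100 UMIs, against 42.3 CPM in the kept cells. CXCL12 gave 88.1, 96.8 and 41.2 CPM of these, against 35.0 CPM in the kept cells. CXCL8 had 7, 4 and 0 UMIs in the low barcodes, against 3 in the kept cells, and CCL2 had 0.946, 1.37 and 2.87 CPM, against 0.216 CPM. VIM, a fibroblast and progenitor gene, was also higher in them, with 4161, 5676 and 3214 CPM against 1009 CPM in the kept cells. So was the neuron marker TUBB3, with 613, 809 and 554 CPM against 188 CPM. The fibroblast marker COL1A2 had 457, 516 and 293 CPM against 160 CPM. What these barcodes hold was not tested.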

How the results depend on the processing

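No paired analysis was possible because each group is 1 library, and leaving out a replicate was not possible for the same reason. Under the 11 settings of scaling, filter and threshold the counts of members called stayed within 1.5 times the reported ones, with one exception: a minimum of 50 CPM in place of 10 left 6 members higher at day 3 over day 0 and 6 lower at day 5 over day 3 (against 9 each, without CXCL6, CCL7 and CCL20), 0 higher at day 5 over day 3 and over day 0 (against 1, CXCL12), and 2 lower at day 5 over day 0 (against 4, without CXCL2 and CXCL3), since these genes then fall under it. The summed level at days 0, 3 and 5 was 308, 2074 and 33.0 CPM with TMM scaling, 305, 2106 and 32.8 CPM with median of ratios scaling, and 235, 2924 and 45.6 CPM without mitochondrial and ribosomal protein genes. A stricter cell filter gave 2388 and 38.4 CPM at days 3 and 5, and every day 5 barcode of at least 1000 UMIs 51.0 CPM. The mean of per-cell CPM was 137 and 3019 at days 0 and 3, and thinned cells gave 148 and 2805. In settings added after the data were seen, day 0 without clusters 0 and 4 had 187 CPM and any member in 13.4% of cells, and day 3 without cluster 2 had 2670 CPM. Any member was found in 5.24%, 73.6% and 1.97% of cells thinned to 500 UMIs, in 18.6%, 96.6% and 7.19% at 2000 UMIs, and in 41.3%, 96.1% and 14.9% unthinned, at days 0, 3 and 5. Without the 5% of cells with most UMIs the day 3 share was 90.3%. The median co-detection ratio ran from 1.09 to 1.12 at day 3 and from 1.73 to 2.64 at day 0 over all its settings, and the ratio across day 3 clusters from 2.24 to 2.33. No called direction of a member reversed. With TMM or median of ratios scaling, and with a minimum of 1 CPM, CXCL1 was also called lower at day 5 than at day 0. Depth limits CCL7, CCL20, CXCL8 and CCL2 at day 5 (0, 0, 3 and 11 UMIs) and CXCL12 at day 3 (75 UMIs).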
